A study of Mus musculus with 9 samples.

Results

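Caudal epiblast-like cells lacking T (also called Brachyury or T/Bra) were compared with wild-type cells by RNA sequencing, using 6 of the 9 libraries of the series: 3 labelled as carrying a T/Bra knockout (T/BraKO) and 3 wild type (WT). The other 3 libraries came from cells lacking Cdx genes (CdxKO), grown in the same way. They entered the fit, and they are used below only to show where a T/BraKO difference was or was not seen in a second mutant. All 9 cultures were mouse embryonic stem cells differentiated in N2B27 medium with 10 ng/ml basic FGF and 5 µM LGK974, an inhibitor of WNT secretion. The WNT agonist CHIR99021, which inhibits the kinase GSK3, was added for the last day, and RNA was taken at 72 h (day 3). Per the study's methods the WT control was an XY line of HM1 origin, and embryonic stem cells were grown on feeder fibroblasts that were removed by adhesion to plastic before differentiation. The number of T/BraKO clones behind the libraries is not given in the sources used here. Replicates are labelled biological, with no statement on separate clones. P-values therefore measure the spread between these cultures only, and in the main fit the part left after the replicate number was fitted, over all 9 libraries.

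T encodes the founding member of the T-box family of transcription factors. It is switched on by WNT and FGF signals in the primitive streak and caudal epiblast, where it binds DNA at T-box motifs and mainly activates transcription, and mouse embryos without it lack posterior mesoderm and a notochord. In caudal epiblast-like cells it marks the state from which both paraxial mesoderm and spinal cord progenitors can form.

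The 6 libraries held between 27189458 and 34705355 counts, and no pair of libraries in a group was a duplicate. T, on chromosome 17 from 8434423 to 8442496 (GRCm38 coordinates, GENCODE M21), had 10900, 11070 and 14760 normalised counts in WT replicates 1, 2 and 3 and 1777, 2214 and 2894 in T/BraKO, where a normalised count is the expected read count divided by the library's size factor. The fall was 2.42 ± 0.34 on the log2 scale (standard error, adjusted p = 2.49e-10 by DESeq2), so that T transcripts were reduced and not absent. Hprt was at 28.1, 20.3 and 16.8 counts in WT and at 3590, 4086 and 4138 in T/BraKO. The T/BraKO and WT lines therefore differed at a locus besides T, and throughout what follows the loss of T and other differences between the lines cannot be told apart. The 13 genes that mark caudal epiblast-like cells were all present. Of these 7 rose and 3 fell, the latter being Fgf8, Hoxb1 and Wnt3a. Summed levels were 1662 to 2019 TPM (the deposited length-normalised level) in WT and 2122 to 2587 in T/BraKO. A large part of these sums was Pou5f1, also a pluripotency gene, with means of 880 TPM in WT and 1241 in T/BraKO. Of the feeder fibroblast list of 20 genes, 6 of 16 tested fell and none rose, no member was at 0 in any group, and summed levels overlapped (131 to 417 TPM in WT, 111 to 555 in T/BraKO).

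T/BraKO replicate 2 stood apart on chromosome 11. Over the 1013 genes of that chromosome with a mean of at least 50 normalised counts, its median log2 deviation from the mean of all 9 libraries was -0.15, against 0.01 to 0.03 in the other 8. Chromosome 8 also varied, at 0.025, -0.010 and 0.084 in WT, -0.046, -0.043 and -0.031 in T/BraKO and -0.006, -0.060 and 0.069 in CdxKO. The medians of the other autosomes and of the X chromosome lay between -0.053 and 0.051. The Y chromosome, with 3 genes of that abundance, stood at a median of 0.31 in T/BraKO and -10.6 in CdxKO relative to WT (log2), so that the CdxKO line differed from the others there. Among genes of that abundance, 10 rose (1.53% of 654) and 51 fell (7.80%) on chromosome 8, and 35 rose (3.46% of 1013) and 68 fell (6.71%) on chromosome 11. On the other autosomes and the X chromosome, 3.93% to 7.66% rose and 2.68% to 7.48% fell. Genes described below that lie on chromosome 11 are Irf1, Irgm1, Irgm2, Igtp, Stat3, Alox15, Alox12e, Igfbp3, Igfbp4, Wnt3, Wnt3a, Notum, Znrf3, Axin2, Etv4, Spred2, Hes7, Nog, Sox9, Hoxb1, Hoxb6, Flt4, Krt19, Col1a1, Npm1, Hnrnph1 and Vwc2, and those on chromosome 8 are Apela, Bst2, Cdh1, Dusp4, Fgfr1, Irf2, Irx3, Mmp2 and Psmb10.

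**Figure D1:**
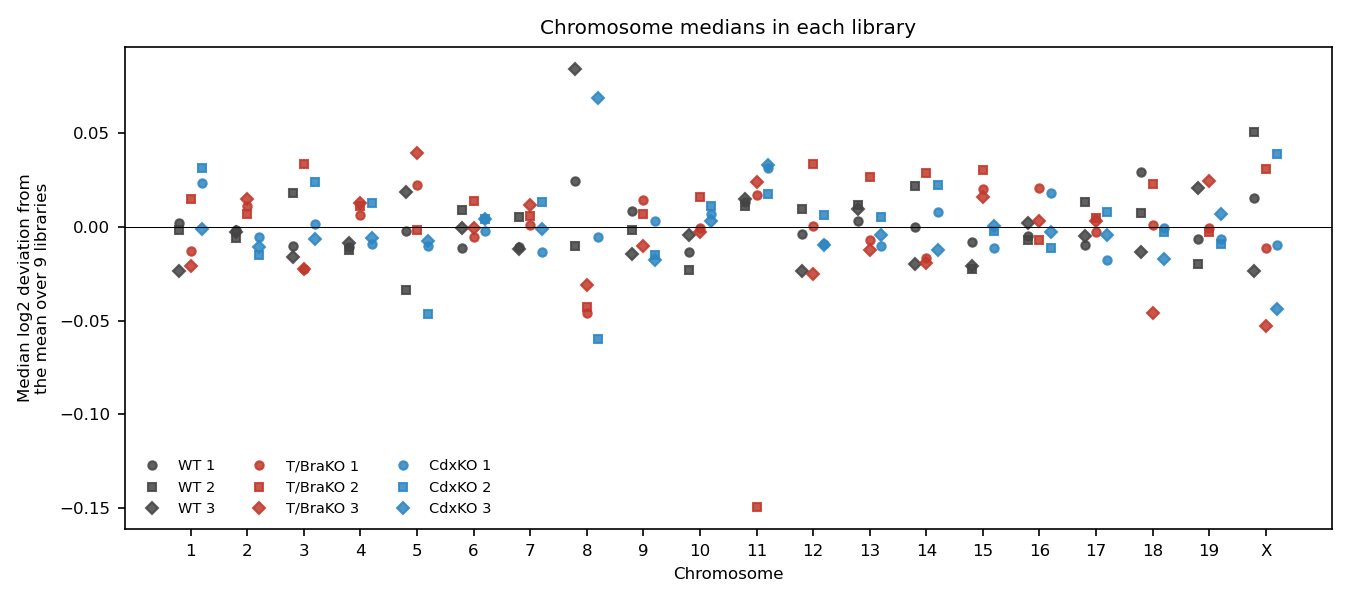
Median log2 deviation of each library from the mean over the 9 libraries, for chromosomes 1 to 19 and X, over genes with a mean of at least 50 normalised counts. Points are libraries, coloured by group and shaped by replicate number. T/BraKO replicate 2 lies at -0.15 on chromosome 11. On chromosome 8 the 3 T/BraKO libraries lie between -0.046 and -0.031, and CdxKO replicate 2 lies at -0.060.

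Of 24736 genes in the table, 12773 had enough counts to be tested. With the replicate number as a block, 617 rose (4.83% of those tested) and 620 fell (4.85%) in T/BraKO at an adjusted p of at most 0.05. The genes that fell did so by more: 126 of them fell by over 1 on the log2 scale and 39 by over 2, whereas 21 rose by over 1 and 1, Hprt, by over 2. The median log2 fold change was -0.49 among genes that fell, 0.27 among those that rose and 0.016 over all genes tested. Between-replicate differences that were shared by the 3 groups were large, and without the block 28 genes rose (0.148% of 18900 tested) and 177 fell (0.937%). Of the genes called with the block, 27 that rose and 161 that fell were also called without it. All 3 T/BraKO libraries lay outside the WT range for 163 of the genes that rose and 346 of those that fell. In the direct test of CdxKO against T/BraKO, 348 of the 617 and 457 of the 620 also differed between the mutants. That test reuses the T/BraKO libraries by which genes were called. Such counts, here and for each list below, therefore follow in part from the calls.

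**Figure D2:**
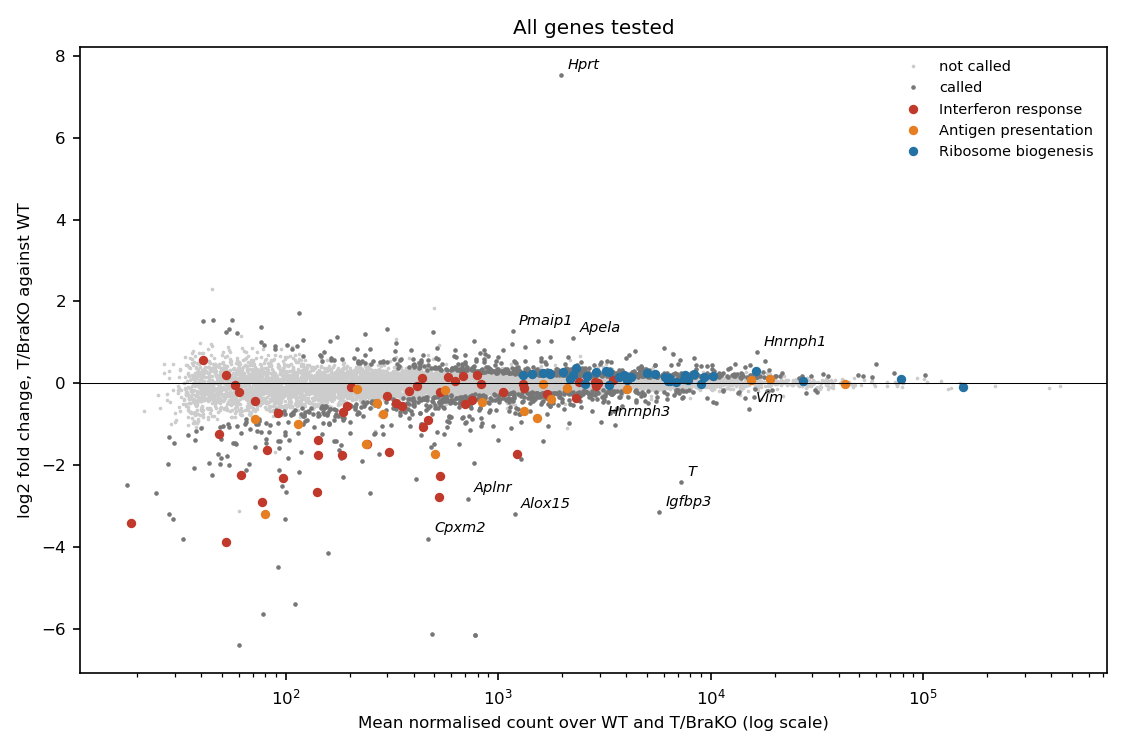
Each point is a gene tested, at its mean normalised count over the WT and T/BraKO libraries (log axis) and its log2 fold change in T/BraKO against WT. Dark grey marks genes called at an adjusted p of at most 0.05. Interferon-response (red) and antigen-presentation (orange) genes extend down to -3.88, while ribosome biogenesis genes (blue) lie within 0.39 of 0.

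Of the gene lists described here, the interferon response held the most genes that fell, on a list written after the values of single members had been seen, whose counts are therefore a description. Interferons are secreted proteins that act through receptor-bound JAK kinases and STAT transcription factors to induce guanylate-binding proteins and immunity-related GTPases, antiviral enzymes and the machinery that loads peptides onto class I molecules. The induced promoters typically carry an interferon-stimulated response element (ISRE), bound by STAT and IRF complexes, or a gamma-activated site (GAS), bound by STAT dimers. Promoters of 4 genes that fell are shown here because they carry such letters close to the start site. Each run is the 250 bases before the RefSeq start (build GRCm38.p6, plus strand), with the ISRE letters (GAAA, any 2 bases, GAAA) and the GAS letters TTCNNNGAA in capitals, searched on both strands, and none of the 4 windows overlaps an annotated exon. The windows are chr3:142594597-142594846 for Gbp2b, chr3:142530086-142530335 for Gbp7, chr11:58199306-58199555 for Igtp and chr11:53769764-53770013 for Irf1.
Gbp2b: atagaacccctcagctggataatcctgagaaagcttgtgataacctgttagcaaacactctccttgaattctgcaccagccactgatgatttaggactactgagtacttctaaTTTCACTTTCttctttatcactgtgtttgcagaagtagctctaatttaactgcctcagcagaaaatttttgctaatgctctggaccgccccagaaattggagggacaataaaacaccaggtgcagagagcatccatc
Gbp7: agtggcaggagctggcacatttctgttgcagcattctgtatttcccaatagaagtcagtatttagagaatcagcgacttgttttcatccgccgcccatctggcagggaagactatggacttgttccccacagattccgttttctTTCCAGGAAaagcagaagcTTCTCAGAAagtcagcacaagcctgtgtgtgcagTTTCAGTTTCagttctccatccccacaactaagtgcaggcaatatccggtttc
Igtp: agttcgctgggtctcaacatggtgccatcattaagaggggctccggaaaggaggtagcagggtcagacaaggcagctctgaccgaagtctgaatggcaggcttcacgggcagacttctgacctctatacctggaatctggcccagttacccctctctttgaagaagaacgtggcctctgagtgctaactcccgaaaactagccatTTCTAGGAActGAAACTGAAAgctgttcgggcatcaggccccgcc
Irf1: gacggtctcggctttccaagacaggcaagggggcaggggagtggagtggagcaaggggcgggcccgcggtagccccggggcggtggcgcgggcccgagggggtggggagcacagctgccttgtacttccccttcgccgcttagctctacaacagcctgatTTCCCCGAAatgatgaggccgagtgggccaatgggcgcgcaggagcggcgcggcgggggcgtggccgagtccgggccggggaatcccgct

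The ISRE letters stood 127 bases before the start in Gbp2b, 43 in Gbp7 and 24 in Igtp, and the GAS letters of Irf1 stood 81 bases before it. Among 28 interferon and antigen-presentation genes that fell and had a promoter in the RefSeq table (of 37 that fell), 10 held the ISRE letters (35.7%) and 8 the GAS letters (28.6%). Among 31 of the 33 genes on the same lists that were tested and not called, the shares were 19.4% for either motif. Over all 32851 windows of that length the shares were 2.98% and 7.02%, and 109 windows held both motifs, 18 of them overlapping. Counted by gene, the shares were 2.91% and 6.99% over 9980 genes tested, and 5.13% and 8.97% over 468 genes that fell. The T-box letters AGGTGTGA were in 1.12% of all windows and in none of the 28. By gene, they were in 2 of the 468 that fell (0.427%) and in 2 of 484 that rose (0.413%), against 78 of 9980 genes tested (0.782%). These are matches of letters within 250 bases and no measure of binding.

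In all, 27 of the 51 interferon-response genes tested fell and none rose, with a median log2 fold change of -0.40, beside 0.016 over all genes. A further 27 genes of the list had too few counts to be tested, and 22 of these had the lower mean in T/BraKO. The fall was deepest among the guanylate-binding proteins and immunity-related GTPases, large GTPases that attack the vacuoles of intracellular pathogens: all 10 members tested fell, with a median of -2.29, and all 10 also fell without the block. Gbp2 (chromosome 3, 142620602 to 142638008) had 929, 1131 and 560 normalised counts in WT and 184, 274 and 101 in T/BraKO, a log2 fold change of -2.26 ± 0.25 (adjusted p = 1.46e-16, DESeq2). Its neighbour Gbp2b had 940, 1291 and 512 counts in WT and 105, 240 and 69.1 in T/BraKO (-2.78 ± 0.34, adjusted p = 4.68e-14), and Gbp7 had 237, 384 and 110 against 40.8, 48.5 and 22.4 (-2.64 ± 0.25, adjusted p = 7.34e-24). For each of these genes every T/BraKO library lay below every WT library. Gbp3, Gbp4 and Gbp9 fell by 2.32, 2.24 and 2.90 on the log2 scale, and as these paralogues are similar in sequence, reads may have been divided between them with error.

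Immunity-related GTPases moved in the same direction. Irgm1, on chromosome 11 (48861968 to 48871683), had 595, 538 and 661 counts in WT and 268, 242 and 352 in T/BraKO (log2 fold change -1.07 ± 0.14, adjusted p = 1.35e-12). Irgm2 fell by 1.67 and Igtp by 1.74, both also on chromosome 11 and overlapping each other in the annotation, and Iigp1, on chromosome 18, fell by 3.42 from 36.0, 41.6 and 25.2 counts to 2.21, 3.66 and 3.59. Iigp1 had means below the count filter of 34.5 in both groups. It was tested because the filter averaged all 9 libraries, CdxKO included. Summed over the 19 listed GTPases, levels were 69.1 to 132 TPM in WT, 21.1 to 31.6 in T/BraKO and 113 to 170 in CdxKO. T/BraKO libraries were thus the lowest of the 9 and the CdxKO range reached above that of WT. Of the 27 interferon-response genes that fell, 24 also differed between CdxKO and T/BraKO, beside 457 of all 620 genes that fell. The median CdxKO difference from WT for the 27 was 0.13.

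**Figure D3:**
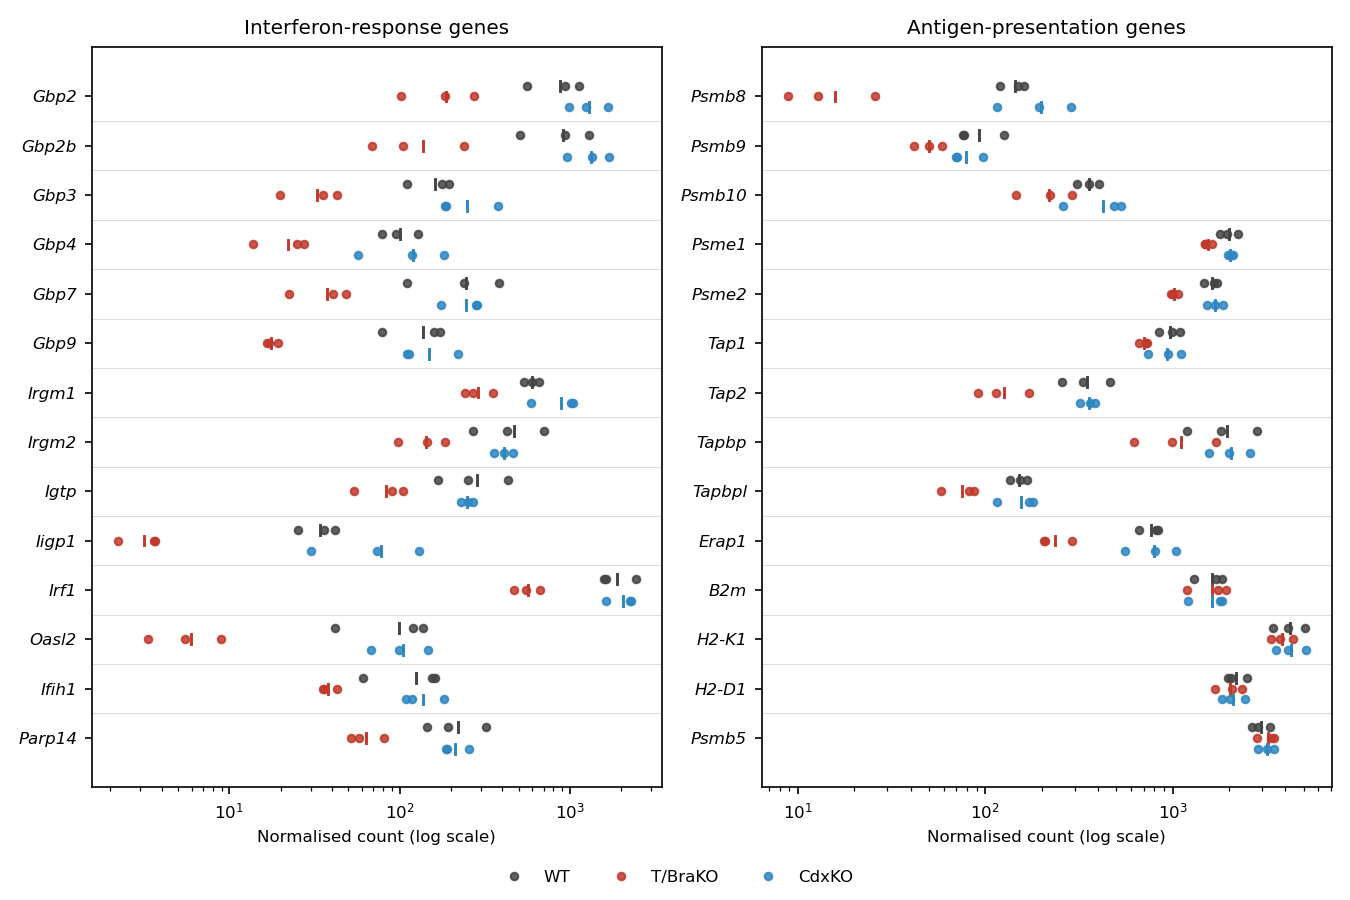
Normalised counts (log axis) of interferon-response genes and antigen-presentation genes in the 3 WT, 3 T/BraKO and 3 CdxKO libraries. Points are libraries and vertical ticks are group means. All 3 T/BraKO libraries lie below the WT range for the guanylate-binding proteins and for Irf1, Oasl2, Psmb8, Tap2 and Erap1, whereas B2m, H2-K1, H2-D1 and Psmb5 overlap in all groups.

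Genes that transmit the interferon signal moved less. Of 19 receptor and signalling genes tested, 4 fell and none rose. Irf1, a transcription factor that is both a target and an activator of the response, had 1618, 2448 and 1582 counts in WT and 472, 664 and 555 in T/BraKO (-1.73 ± 0.27, adjusted p = 1.64e-08). Stat3 and Irf2 fell by 0.27 and 0.54, both with overlapping ranges, and Stat2, at -0.22, did not pass the test (adjusted p = 0.117). The receptor chains Ifnar1 and Ifngr1 and the kinase Jak1 had log2 fold changes of 0.02, -0.05 and 0.00, none of which passed the test. Of 21 interferon genes in the table, 19 had no count in any of the 9 libraries, and the 6 WT and T/BraKO libraries held 1 count over all of them.

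Among 22 antiviral effectors and sensors tested, 13 fell and none rose, with a median of -0.47. Oasl2, of the oligoadenylate synthetase family, had 119, 136 and 42.0 counts in WT and 3.31, 5.50 and 8.97 in T/BraKO (-3.88 ± 0.48, adjusted p = 1.33e-13). Ifih1, a sensor of double-stranded RNA, had 154, 161 and 60.6 counts against 43.0, 35.7 and 35.9 (-1.63 ± 0.30, adjusted p = 2.33e-06). Groups did not overlap for either gene. The ADP-ribosyltransferase family members Parp9, Parp10, Parp12 and Parp14 fell by 0.90, 1.48, 1.38 and 1.75, each also without the block. Not every effector fell: Bst2, which tethers virus particles, had a log2 fold change of -0.02, and the RNA-editing enzyme Adar one of 0.02, neither of which passed the test. Isg15, a ubiquitin-like protein, had too few counts to be tested with the block, and was called lower without it, with 24.8, 16.4 and 10.3 counts in WT and 1.10, 3.66 and 1.79 in T/BraKO.

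Over the whole interferon-response list, 22 of the 27 genes that fell did not overlap between the groups. Leaving out single libraries gave 20 to 33 genes that fell, and 22 without T/BraKO replicate 2. Without the block 23 fell, 17 of them the same genes, and 4 fell by edgeR's quasi-likelihood test without the block. Of 14 interferon and antigen-presentation genes on chromosome 11, 7 fell, Irf1, Irgm1, Irgm2 and Igtp among them. Whether the shift of that chromosome in T/BraKO replicate 2 contributed to these 7 was not tested beyond the fit without that library.

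Genes for antigen presentation by class I molecules were called for the immunoproteasome and for part of the peptide-loading set. Of the 19 genes tested, on a list also written after values were seen, 10 fell and none rose (median -0.46), and 9 of the 10 differed from CdxKO. Of the 10, 6 were called without the block and 7 to 10 fell when single libraries were left out. All 5 members of the immunoproteasome set fell. Psmb8, an inducible catalytic subunit, had 150, 162 and 120 counts in WT and 8.83, 12.8 and 26.0 in T/BraKO (-3.18 ± 0.36, adjusted p = 5.89e-16). Psmb9 and Psmb10, the other inducible subunits, fell by 0.87 and 0.75, and neither was called without the block. The activator subunit Psme2 went from 1728, 1674 and 1468 counts to 1064, 977 and 1003 (-0.68 ± 0.08, adjusted p = 1.33e-13), and its partner Psme1 fell by 0.37. As a set these 5 genes summed to 305 to 377 TPM in WT, 224 to 229 in T/BraKO and 334 to 394 in CdxKO. The 14 constitutive proteasome subunits of the core particle gave 1 that rose, Psma7 by 0.17, and none that fell, with summed levels of 5100 to 5662 TPM in WT and 5213 to 5900 in T/BraKO.

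Of the 14 peptide-loading and class I genes tested 5 fell, with a median of -0.14. Tap2, a subunit of the transporter that carries peptides into the endoplasmic reticulum, had 333, 461 and 257 counts in WT and 115, 172 and 91.5 in T/BraKO (-1.48 ± 0.17, adjusted p = 5.89e-16). Its partner Tap1 fell by 0.46 (adjusted p = 1.67e-04). Erap1, the aminopeptidase that trims peptides, went from 811, 842 and 659 counts to 210, 207 and 290 (-1.72 ± 0.29, adjusted p = 1.64e-07). Every T/BraKO library lay below every WT library for Tap1, Tap2 and Erap1. Tapbp, a chaperone of peptide loading, fell by 0.84 with overlapping ranges and was not called without the block, and the related Tapbpl fell by 1.00. The class I heavy chains H2-K1 and H2-D1 and their light chain B2m had log2 fold changes of -0.13, -0.10 and -0.01, and none of them passed the test.

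Other immune-related genes outside these lists, chosen after their values were seen, moved the same way. Il15ra, the interleukin 15 receptor alpha chain, had 172, 191 and 159 counts in WT and 25.4, 35.7 and 21.5 in T/BraKO (-2.66 ± 0.29, adjusted p = 4.47e-17). Serpinb9, an inhibitor of granzyme B, had 177, 148 and 209 against 57.4, 27.5 and 91.5 (-1.68 ± 0.23, adjusted p = 1.97e-11), and was higher than WT in CdxKO by 0.90. Of 6 inflammasome genes tested, 4 fell and none rose: the sensors Naip5 and Naip7 by 1.84 and 2.11, the cytokine Il18 by 0.68, and Naip6. Naip5 had 149, 173 and 155 counts in WT and 45.2, 33.0 and 59.2 in T/BraKO. The Naip genes are closely related copies, so that reads may have been divided between them with error.

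Enzymes that make eicosanoids, lipid mediators derived from arachidonic acid, were examined next. On a list written after values were seen, 4 of 12 tested fell and none rose, with a median of -0.26. Each of the 4 was also called without the block, did not overlap between groups and differed from CdxKO, and each fit that left out 1 library also gave 4. Ptgs1, cyclooxygenase 1 (chromosome 2, 36230426 to 36252272), had 372, 288 and 236 counts in WT and 21.0, 17.4 and 12.6 in T/BraKO (-4.15 ± 0.28, adjusted p = 6.40e-45). Its inducible relative Ptgs2 had 140, 125 and 85.8 counts against 38.6, 54.0 and 57.4 (-1.18 ± 0.26, adjusted p = 1.89e-04). Against the same WT libraries Ptgs1 and Ptgs2 were called higher in CdxKO, with log2 fold changes of 0.80 and 1.47. Alox15, a lipoxygenase on chromosome 11, had 1957, 2170 and 2336 counts in WT and 209, 169 and 362 in T/BraKO (-3.19 ± 0.26, adjusted p = 1.17e-31). The neighbouring Alox12e fell by 2.67, and Alox5, with 286, 306 and 296 counts against 274, 219 and 212, did not pass the test (-0.34, adjusted p = 0.212).

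The 3 apelin pathway genes, a list written after values were seen, changed in opposite directions at receptor and ligand. Aplnr, the G-protein-coupled apelin receptor of nascent mesoderm, had 1669, 1186 and 916 counts in WT and 260, 168 and 118 in T/BraKO (-2.81 ± 0.47, adjusted p = 1.56e-07). Apela, a peptide ligand made by pluripotent cells, had 968, 1434 and 1945 counts in WT and 2245, 3230 and 3720 in T/BraKO (1.10 ± 0.10, adjusted p = 3.11e-24). Neither gene overlapped between groups. The other ligand gene, Apln, rose by 0.36 with overlapping ranges, and was not called without the block. Aplnr did not differ from WT in CdxKO by the test (-0.01, adjusted p = 0.994), and in the direct test it was higher in CdxKO than in T/BraKO (adjusted p = 1.03e-07). In such bulk cultures fewer cells of a kind and less RNA per cell cannot be told apart.

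Insulin-like growth factor genes fell where they changed. Of 11 tested, 5 fell and none rose, on a list written after values were seen. Igfbp3, a secreted protein that binds these growth factors (chromosome 11, 7206086 to 7213923), had 10591, 11012 and 9190 counts in WT and 1210, 853 and 1563 in T/BraKO (-3.15 ± 0.28, adjusted p = 3.73e-26), and its level went from 302 to 34.5 TPM. It was the only 1 of the 5 called without the block, and leaving out single libraries gave 2 to 5 genes that fell. Igfbp4, Igf2, Igf2r and the RNA-binding protein gene Igf2bp3 fell by 0.50, 0.39, 0.29 and 0.18, all with overlapping ranges. The receptor Igf1r had a log2 fold change of -0.05 and did not pass the test.

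FGF signalling sustains T expression, and T in turn is known to sustain FGF ligands in the streak. Of 28 FGF pathway genes tested, 3 rose and 5 fell, with a median log2 fold change of 0.09, and leaving out single libraries gave 1 (without T/BraKO replicate 2) to 5 that fell. Fgf8, the main streak ligand, had 857, 642 and 677 counts in WT and 195, 233 and 309 in T/BraKO (-1.56 ± 0.17, adjusted p = 1.83e-17). Fgf4 had 128, 130 and 84.8 counts against 30.9, 41.2 and 72.7 (-1.36 ± 0.36, adjusted p = 0.00371). Both ligands were non-overlapping, and Fgf4 was not called without the block. In CdxKO the same ligands were lower than WT by 0.65 and 1.27, and only Fgf8 differed between the mutants (adjusted p = 3.59e-06 for Fgf8 and 0.928 for Fgf4). Fgf17, a relative of Fgf8, moved the other way, from 224, 209 and 293 counts to 362, 464 and 416 (0.79 ± 0.16, adjusted p = 4.07e-05). The 4 receptor genes tested gave no call, with Fgfr1 at -0.03. Among feedback regulators and targets 2 rose and 2 fell: the ETS factor Etv4 rose by 0.52 and Spred1 by 0.24, while the phosphatase Dusp4 (chromosome 8) fell by 0.45 and Spred2 (chromosome 11) by 0.23.

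WNT pathway genes rose more often than they fell: 15 of 58 tested rose and 4 fell, with a median of 0.10. The 15 that rose had a median log2 fold change of 0.45, beside 0.27 over all genes that rose. Most of these calls depended on the block, without which 2 rose and 2 fell, and 6 rose when WT replicate 1 was left out. By role, 2 ligands rose and 2 fell of 12, 4 receptors and agonists rose and 2 fell of 21, and 4 of 12 inhibitors and 5 of 13 nuclear effectors and targets rose, with none that fell. Rspo3, an R-spondin that enhances WNT reception, had 1819, 890 and 963 counts in WT and 355, 193 and 399 in T/BraKO (-1.94 ± 0.31, adjusted p = 2.88e-08). Wnt3a, a ligand of the streak and tail bud, had 860, 694 and 591 counts against 300, 275 and 373 (-1.19 ± 0.31, adjusted p = 0.00339), and was lower than WT by 1.49 in CdxKO. Groups did not overlap for either gene. The ligand Wnt5b and the receptor Fzd7 fell by 0.46 and 0.59, and the ligands Wnt3 and Wnt5a rose by 0.35 and 0.55.

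No tested target or inhibitor on the WNT list fell. As all cultures held LGK974 and received CHIR99021, target levels here are no readout of the ligand genes. Sp5, a direct WNT target that encodes a transcriptional repressor, had 2950, 3266 and 3195 counts in WT and 5385, 5097 and 4844 in T/BraKO (0.70 ± 0.08, adjusted p = 8.64e-16). Kremen2, which acts with Dkk proteins to remove WNT co-receptors, had 251, 287 and 304 against 538, 561 and 402 (0.81 ± 0.15, adjusted p = 8.07e-06). These were the 2 genes of the list that rose with and without the block. The inhibitors Dkk1, Notum and Znrf3 rose by 1.25, 0.53 and 0.27, and Lef1, a nuclear effector, by 0.21. Axin2, the usual readout of the pathway, was at 0.16 and did not pass the test (adjusted p = 0.143), and Ctnnb1, which encodes β-catenin, was at 0.03 (adjusted p = 0.811). The receptor Fzd10 rose by 0.45 in T/BraKO and was lower than WT by 1.45 in CdxKO.

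**Figure D4:**
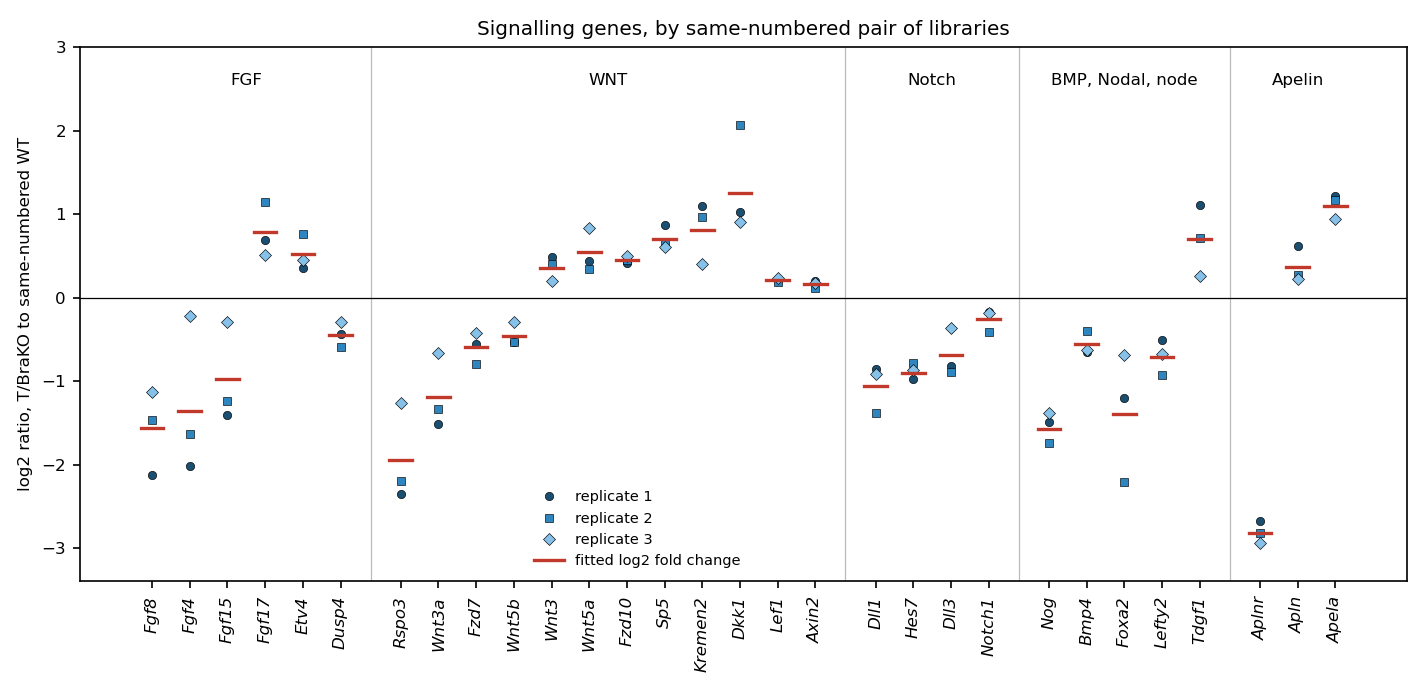
Log2 ratio of each T/BraKO library to the WT library of the same replicate number, for named genes of the FGF, WNT, Notch, BMP, Nodal, node and apelin groups. Symbols mark replicate numbers and red bars the fitted log2 fold change. Ratios of Fgf8, Rspo3, Dll1, Nog and Aplnr are below 0 in all 3 pairs, and those of Fgf17, Sp5 and Apela above 0.

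Notch signalling drives the segmentation clock of the presomitic mesoderm. Of 19 genes tested, 4 fell and none rose, with a median of -0.13. Dll1, a ligand, had 833, 844 and 658 counts in WT and 459, 323 and 348 in T/BraKO (-1.06 ± 0.13, adjusted p = 8.60e-14), with no overlap, and was the only 1 of the 4 called without the block. Dll3, a ligand-like modulator, fell by 0.69 and the receptor Notch1 by 0.26, both with overlapping ranges. Hes7, a cyclic repressor of the clock, was at 331, 54.2 and 280 counts in WT and 168, 31.1 and 152 in T/BraKO (-0.90 ± 0.20, adjusted p = 2.87e-04). The second replicate was low for Hes7 in both groups, and the value in CdxKO was also -0.90. Leaving out T/BraKO replicate 2 gave 2 genes that fell.

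Genes of the node fell where they were called. Nog, a BMP antagonist made by the node and notochord, had 138, 210 and 71.8 counts in WT and 48.5, 62.3 and 26.9 in T/BraKO (-1.58 ± 0.25, adjusted p = 2.88e-08). It lies on chromosome 11 and rose by 1.25 in CdxKO. Of the 25 BMP pathway genes tested only Nog and the ligand Bmp4 (-0.55, adjusted p = 0.0395) were called. Of 8 node and notochord genes tested, 3 fell: Nog, the forkhead factor Foxa2 and Sox9. Foxa2 had 128, 220 and 348 counts in WT and 55.2, 46.7 and 215 in T/BraKO (-1.40 ± 0.43, adjusted p = 0.0187), with overlap, and Sox9 fell by 0.75. Of 14 Nodal pathway genes, the co-receptor Tdgf1 rose by 0.70 and 2 fell, among them the inhibitor Lefty2 by 0.71, while Nodal itself did not pass the test (0.42, adjusted p = 0.452). The hedgehog co-receptor Cdon fell by 0.76, the only call of 10 on that list, and was higher than WT by 0.36 in CdxKO. Of 13 retinoic acid genes 1 rose, the receptor Rxra by 0.24, and of 12 YAP targets none was called.

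Ligands and receptors that guide cells were mostly not called, with a few large exceptions. Slit2, a secreted repellent, had 837, 755 and 579 counts in WT and 368, 168 and 281 in T/BraKO (-1.49 ± 0.28, adjusted p = 1.08e-05), and Plxna2, a semaphorin receptor, had 1287, 837 and 776 against 407, 274 and 350 (-1.49 ± 0.31, adjusted p = 9.95e-05). Both were also called without the block, and these were the 2 that fell of 41 guidance genes tested, against 3 that rose, Sema3e, Sema4d and Unc5b, by 0.50, 0.39 and 0.21. Of 19 ephrin pathway genes, the receptors Epha2 and Epha5 rose by 0.86 and 0.83 and Epha4 fell by 0.83. Epha4 was higher and Epha5 lower than WT in CdxKO, by 0.85 and 2.04. None of the ephrin receptors, nor of the guidance genes that rose, was called without the block or when WT replicate 2 was left out. Kitl, the ligand of the receptor tyrosine kinase Kit, had 1046, 570 and 716 counts in WT and 395, 186 and 431 in T/BraKO (-1.24 ± 0.15, adjusted p = 2.08e-14). It was lower than WT in CdxKO too, by 1.62, and was not called without the block (adjusted p = 0.0711).

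Several genes of the epiblast and caudal progenitor state rose. Of 11 caudal progenitor genes tested 6 rose and none fell, and all 6 differed from CdxKO, where Cdx genes are themselves targeted. The homeobox genes Evx1, Cdx1, Nkx1-2 and Cdx2 rose by 0.75, 0.68, 0.45 and 0.37, and Sall4 by 0.26. None of the 6 was called without the block. Eomes, a T-box factor of the early streak, had 218, 165 and 520 counts in WT and 455, 511 and 1083 in T/BraKO (1.26 ± 0.17, adjusted p = 2.81e-11), with log2 ratios of 1.05, 1.62 and 1.06 in the same-numbered pairs and overlapping ranges. Of 16 Hox genes, Hoxb6 rose by 1.02 and Hoxb1, the most anterior of those called, went from 2106, 994 and 1207 counts to 888, 390 and 399 (-1.39 ± 0.20, adjusted p = 3.32e-10). Both lie on chromosome 11 and neither was called without the block. Of 15 primed epiblast genes 5 rose and 1 fell: Pou5f1, the pluripotency factor OCT4, had 11611, 14005 and 18624 counts in WT and 18062, 20775 and 25218 in T/BraKO (0.55 ± 0.07, adjusted p = 3.01e-14), and the DNA methyltransferase Dnmt3b rose by 0.36. Neural fate genes gave 3 that rose, among them Zic2 and Zic5 by 0.38 and 0.36, and 1 that fell, Irx3 by 0.84, of 11 tested, and Sox2 was at 0.01 (adjusted p = 0.986). Without the block no primed epiblast or neural fate gene was called, and without WT replicate 2 the genes that rose numbered 3 and 1.

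Regulators on the lateral mesoderm, cardiac and blood lists fell where they were called, while Eomes, described above, rose. Isl1, a homeobox factor of lateral and cardiac mesoderm, had 56.3, 44.5 and 51.3 counts in WT and 3.31, 3.66 and 9.87 in T/BraKO (-3.18 ± 0.49, adjusted p = 1.11e-08). Blood and endothelial genes had a median of -0.60, and 5 of 12 tested fell with none that rose. Among them were Kdr and Flt4, receptors for vascular growth factors, at -0.99 and -0.64, the ETS factors Etv2 and Fli1 at -0.72 and -1.48, and the blood regulator Lmo2 at -0.33. Etv2 and Flt4 did not overlap between groups, none of the 5 was called without the block, and leaving out WT replicate 3 gave 2 that fell. Flt1, another receptor of the family, had a log2 fold change of 0.64 and did not pass the test. The cardiac actin gene Actc1 rose, from 477, 1484 and 427 counts to 1068, 2765 and 755 (0.95 ± 0.12, adjusted p = 1.85e-13), with overlapping ranges and no call without the block.

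More mesenchymal than epithelial genes were called. Of 18 mesenchymal genes tested 6 fell and none rose, with a median of -0.30, and of 20 epithelial genes 2 rose and 1 fell. Vim, the intermediate filament vimentin, had 20603, 18469 and 16229 counts in WT and 13067, 12244 and 10698 in T/BraKO (-0.62 ± 0.06, adjusted p = 3.89e-20), and rose by the same 0.62 in CdxKO. The protease Mmp2 (chromosome 8) fell by 0.54, also without overlap, and Vim and Mmp2 were the 2 called without the block. Tgfb2, Zeb1 and Cdh2, which encodes N-cadherin, fell by 1.00, 0.41 and 0.32. Krt19, a keratin gene on the epithelial list that lies on chromosome 11, fell by 1.41. Snai1, the repressor that starts the transition from epithelium to mesenchyme, and Cdh1, its E-cadherin target, had log2 fold changes of -0.30 and 0.22 that did not pass the test.

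Of 59 extracellular matrix genes tested 12 fell and 2 rose, with a median of -0.12, and 10 of the 12 differed from CdxKO. Col1a1, a fibrillar collagen on chromosome 11, had 1202, 1532 and 626 counts in WT and 729, 605 and 353 in T/BraKO (-0.96 ± 0.12, adjusted p = 1.05e-12), and Col1a2 fell by 0.81. Col12a1 had 177, 153 and 72.7 against 62.9, 53.1 and 33.2 (-1.40 ± 0.26, adjusted p = 2.71e-06), and Postn, the matricellular protein periostin, 27.0, 50.3 and 14.9 against 5.52, 5.50 and 4.48 (-2.48 ± 0.55, adjusted p = 2.51e-04). Groups overlapped for the type I collagens and not for Col12a1 and Postn. Postn had means below the count filter in both groups, and was tested because that filter averaged all libraries, CdxKO included. Without the block 2 of the 12 fell, and leaving out WT replicate 1 gave 6. Col1a1, Col1a2, Postn and the receptors Pdgfra and Pdgfrb, which fell by 0.79 and 0.85, are also markers of fibroblasts such as the feeders, while Col3a1, Dcn and Lum, further fibroblast markers, were at 375, 134 and 175, at 34.9, 40.6 and 14.0 and at 6.75, 2.90 and 8.39 counts in WT and at 314, 140 and 164, at 38.6, 76.9 and 30.5 and at 1.10, 4.58 and 8.07 in T/BraKO. The part of residual feeder cells in these matrix values was not tested.

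Among genes of hypoxia, glycolysis and lipid synthesis those called fell, but outside the hypoxia targets they were few. Of 13 hypoxia targets tested 6 fell and none rose, and of 20 glycolysis genes 2 fell, beside 4.85% of all genes tested. Hif3a, a hypoxia-inducible factor subunit, had 1232, 2149 and 1337 counts in WT and 578, 904 and 698 in T/BraKO (-1.09 ± 0.09, adjusted p = 3.44e-31), and was the only one of the 8 called without the block. The prolyl hydroxylase gene P4ha1 and the kinase gene Pdk1, which limits entry of pyruvate into the citric acid cycle, fell by 0.50 and 0.47, and did not overlap. Of 22 sterol synthesis genes 4 fell, among them Hsd17b7 at -0.55 and Cyp51 at -0.18, and of 10 fatty acid genes 2 fell, Scd1 and Elovl6 by 0.19 and 0.16. Leaving out single libraries gave 1 (without WT replicate 3) to 5 that fell of the sterol and fatty acid genes, and 4 (without WT replicate 1) to 9 of the glycolysis and hypoxia genes.

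Some genes for growth and ribosome assembly rose, those for ribosome assembly by less than 0.5 on the log2 scale. On a list written after values were seen, 17 of 40 ribosome biogenesis factors rose and none fell, with log2 fold changes between 0.17 and 0.39 and a median over the list of 0.17. Rcl1 had 2103, 1677 and 2259 counts in WT and 2656, 2337 and 2860 in T/BraKO (0.39 ± 0.07, adjusted p = 1.03e-06), and was the 1 gene of the 17 that did not overlap between groups. Ddx21, Bop1, Rrp12 and Polr1b rose by 0.30, 0.30, 0.29 and 0.28. The 2 most abundant members, Npm1 and Ncl, had log2 fold changes of -0.09 and 0.11 that did not pass the test, and summed levels overlapped (13502 to 15691 TPM in WT, 13082 to 16165 in T/BraKO). None of the 17 was called without the block, leaving out T/BraKO replicate 3 gave 7 that rose, and 15 of the 17 differed from CdxKO. Odc1, Srm, Sat1 and Azin1 of the polyamine pathway rose by 0.34, 0.36, 0.40 and 0.21, and spermine synthase, Sms, fell by 0.18. That list was also written after values were seen, and none of these polyamine genes was called without the block. Myc, a driver of ribosome synthesis, had 556, 197 and 888 counts in WT and 824, 612 and 1554 in T/BraKO (1.02 ± 0.28, adjusted p = 0.00576), and with Mycn, Ccnd1 and Ccne1 (0.25, 0.26 and 0.31) it made up the 4 of 17 cell cycle genes that rose. None of these cell cycle calls was made without the block.

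Paralogous splicing regulators moved in opposite directions. Hnrnph1, on chromosome 11 (50376990 to 50386528), had 12854, 10621 and 13294 counts in WT and 20236, 18965 and 23031 in T/BraKO (0.76 ± 0.06, adjusted p = 9.80e-39). Hnrnph3, on chromosome 10, had 3924, 3956 and 4174 in WT and 1936, 2374 and 1940 in T/BraKO (-0.95 ± 0.07, adjusted p = 1.42e-35). Neither overlapped between groups, both were called without the block, and the CdxKO differences from WT were -0.03 and -0.05. Of the 20 hnRNP genes, a list written after values were seen, 4 rose and 2 fell, among them Hnrnpa1 at -0.36. Of 10 sodium channel genes tested, on a list also written after values were seen, 2 fell. These were Scn9a (467, 420 and 382 counts in WT, 129, 133 and 119 in T/BraKO, -1.73 ± 0.19) and the accessory subunit Scn4b (-1.45).

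Among p53 targets 3 of 23 rose and 3 fell. Pmaip1, which encodes the pro-apoptotic protein NOXA, had 551, 764 and 725 counts in WT and 1365, 1665 and 1961 in T/BraKO (1.28 ± 0.10, adjusted p = 1.23e-32). Trp73, a relative of p53, rose by 0.58 and Phlda3 by 0.24, while Trp53inp1, Ddit4 and Apaf1 fell by 0.35, 0.21 and 0.18. Cdkn1a, the best known target, did not pass the test (0.28, adjusted p = 0.256). Of 34 imprinted genes 8 rose and 5 fell. Mest, Peg10 and H19 were among those that rose, at 0.53, 0.47 and 1.22 in T/BraKO, beside 0.52, 0.51 and 4.17 in CdxKO against the same WT libraries. Leaving out T/BraKO replicate 2 gave 2 that rose.

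Among the deepest falls were those of the small proline-rich proteins of the cornified envelope, the fatty acid transporter Cd36 and the vasopressin receptor Avpr1b. They stood on a mixed list of arginine, lipid uptake and cornified envelope genes, chosen with earlier results of these data known. Of its 8 genes tested 5 fell and none rose, a description that counts Sprr2a1 and Sprr2a2 separately. Sprr2a3 had 1399, 825 and 663 counts in WT and 19.9, 9.16 and 13.5 in T/BraKO, and Cd36 had 312, 140 and 199 against 3.31, 5.50 and 5.38. Sprr2a1 and Sprr2a2 carried identical counts and cannot be separated. Other large changes were in genes of none of these groups. Cpxm2, of the carboxypeptidase family, had 707, 1437 and 480 counts in WT and 51.9, 81.5 and 45.7 in T/BraKO (-3.79 ± 0.18, adjusted p = 9.34e-95). Tmem255a, on the X chromosome, had 230, 161 and 137 against 7.72, 3.66 and 12.6 (-4.48 ± 0.39, adjusted p = 6.69e-27). Vwc2, a secreted BMP antagonist on chromosome 11, and Klhl6 had log2 fold changes of -3.80 and -3.32. These 4 genes differed from CdxKO and did not overlap with WT. Of those that rose, Tgfbr3, the co-receptor betaglycan, had 797, 973 and 1059 counts in WT and 1474, 1747 and 2016 in T/BraKO (0.89 ± 0.08, adjusted p = 5.22e-23), and was called without the block. Pou2f3, Kcnj5, Spata18 and Foxi3 rose by 1.55, 1.52, 1.56 and 1.14 from WT means of 23.1, 20.5, 27.6 and 110 counts, none of them called without the block.

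**Figure D5:**
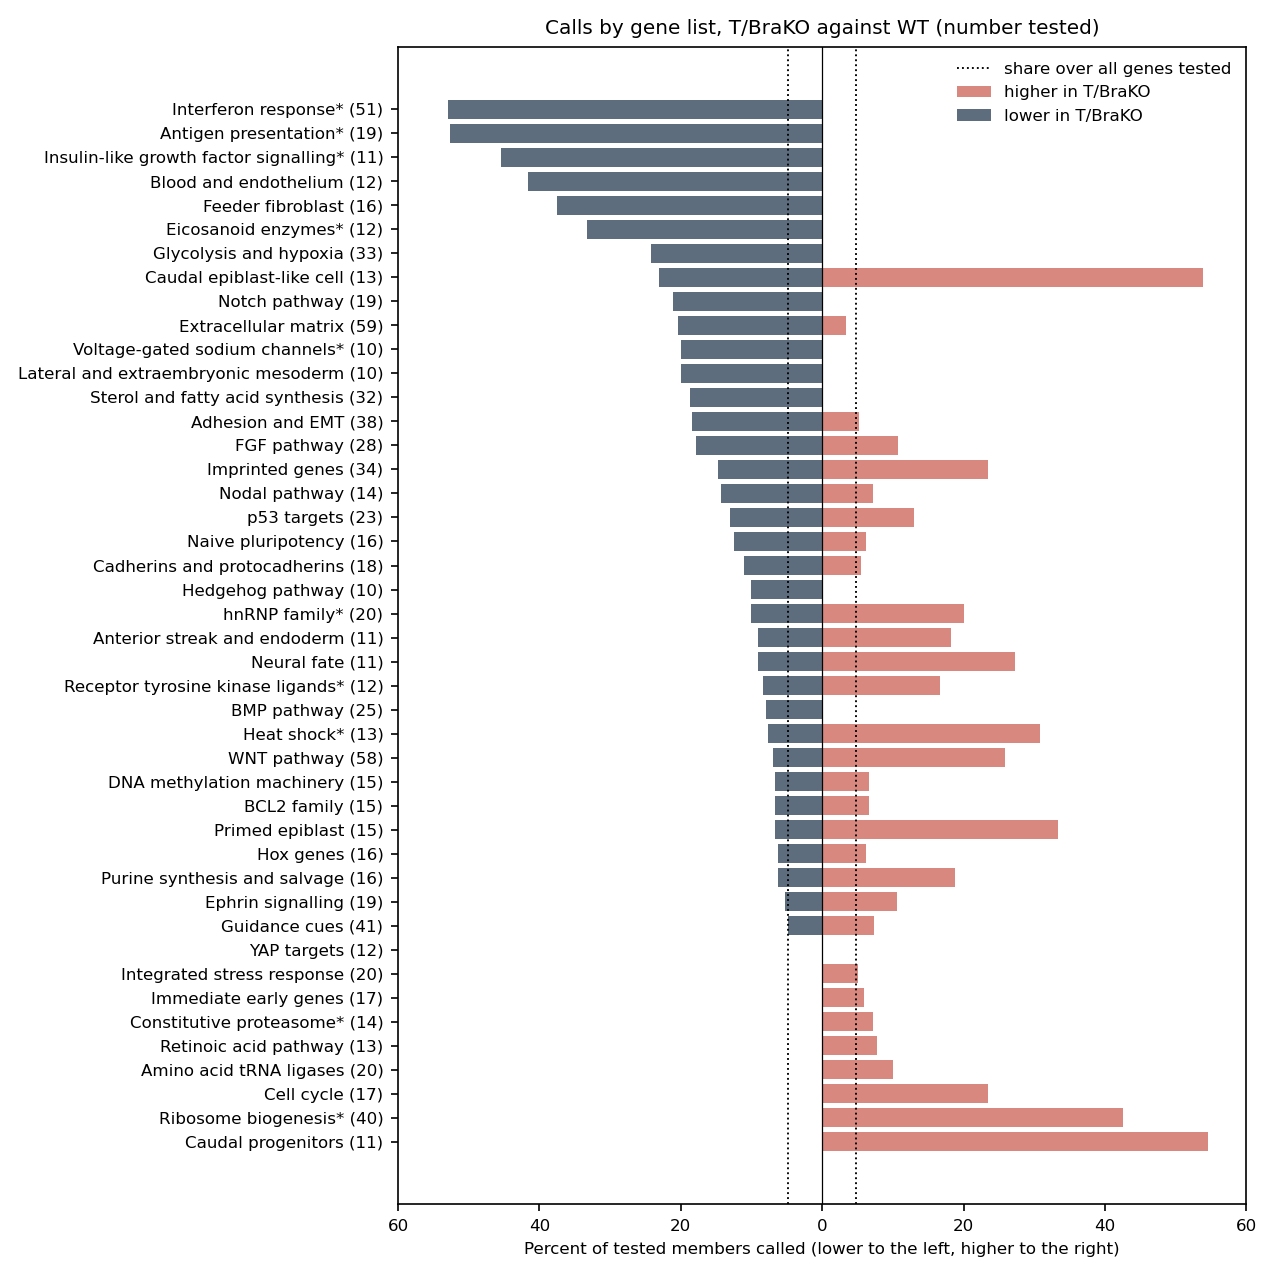
Percent of the tested members of each gene list that fell (left, grey) or rose (right, red) in T/BraKO against WT, for lists with at least 10 members tested, with the number tested in brackets. Dotted lines mark the shares over all genes tested, 4.85% and 4.83%, and an asterisk marks lists written after values of their members were seen. The interferon-response and antigen-presentation lists stand at the top with calls to the left only, and ribosome biogenesis and caudal progenitors at the bottom with calls to the right only.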

How the data were processed

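RNA was measured as polyA-selected, strand-specific, single-end libraries. Per the submitters' processing notes and the study's methods, the authors trimmed reads with cutadapt 1.16, aligned them to mm10 with STAR 2.5.2a and deposited gene-level expected counts from RSEM 1.3.0 on RefSeq genes, which RSEM divides among genes that share reads. The deposited TPM values, from the same RSEM run, were used only for levels summed over lists or compared between genes. The members, the gene lists and the tests were chosen with earlier results of these data known.

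Expected counts were rounded and fitted in R 4.3.3 with DESeq2 1.42.0, over all 9 libraries, with group and replicate number as terms (Wald test, Benjamini-Hochberg adjustment over all genes tested, call at 0.05). Independent filtering left out genes with a mean under 34.5 normalised counts over all 9 libraries, CdxKO included. The block was kept because same-numbered libraries deviated together from their group means (correlation 0.532 to 0.814 over 9 pairs and 12316 genes, against -0.690 to 0.134 over the 18 other pairs). Replicate pairs within a group differed beyond counting noise, with a chi-square per degree of freedom of at least 35.7. A floor of 3 counts was 0.0864 to 0.110 CPM in the 6 libraries. The fit was tested on simulated counts for T/BraKO against WT with 200 changed genes among 14977: with the block 85.1% of changes of 1 and 95.6% of changes of 2 on the log2 scale were recovered with 14 false calls, and without it 46.0% and 95.6% with 0. Replicate effects shared by the groups were built into the simulation, so that it cannot decide whether the block was needed. Smaller changes were not simulated, whereas 513 genes that rose and 315 that fell changed by less than 0.5. Named genes were T and Hprt, the 15 largest called changes in each direction without overlap between groups and, in each list, up to 4 called genes per direction with the largest change and the same sign in all 3 pairs (each with a mean of at least 50 in the higher group), besides the most abundant gene not called. Members of the 13 lists written later, and other genes, were chosen after their values were seen. Alternatives were edgeR 4.0.16 (quasi-likelihood), TMM scaling, a minimum of 10 counts in 3 libraries, no block, the 6 libraries alone, stricter thresholds and leaving out each library. Coordinates are GENCODE M21 on GRCm38 matched by symbol (24160 of 24736 genes), and promoters are those of RefSeq on GRCm38.p6. Some items named by the rule are not reported here.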

Additional observations from a re-analysis of the deposited data

How the results depend on the processing

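T kept its fall in each alternative, at -2.70 to -2.24 on the log2 scale. The counts of genes depended on the replicate block and the threshold. Against 617 genes that rose and 620 that fell, fits without the pairing by replicate number gave 28 and 177 (DESeq2), 7 and 49 (edgeR) and 30 and 163 (the 6 libraries alone), and the share of genes that rose among those called went from 49.9% to 13.7% without the block in DESeq2. The 6 libraries with the block gave 403 and 465. An adjusted p of at most 0.01 left 289 and 388, and a log2 fold change over 1 left 21 and 126. Leaving out single libraries gave 199 (without WT replicate 1) to 582 genes that rose and 293 (without WT replicate 2) to 600 that fell. The last alternatives were chosen after seeing the data: no independent filtering gave 515 and 567, and leaving out genes of chromosomes 8 and 11 from the count gave 572 and 495. TMM scaling moved the median of all genes by -0.006. Of 199 named genes compared, 173 were called with the block, and 101 of these lost their call without it.

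Genes near 0 that were not called changed sign in some fits. Jak1 went to -0.00376 with TMM factors and -0.000667 in edgeR with the block, and B2m to 0.000787 in the 6 libraries without the block. When single libraries were left out, the ranges were -0.0779 to 0.0700 for Jak1, -0.0494 to 0.0363 for B2m, -0.0961 to 0.0755 for Bst2, -0.0717 to 0.0406 for Fgfr1, -0.0335 to 0.0908 for Ifnar1, -0.129 to 0.0395 for Ifngr1, -0.136 to 0.0315 for Igf1r and -0.153 to 0.183 for Sox2.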
